A study of Mus musculus with 24 samples.

Results

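The genes described here are structural components of the neuronal cytoskeleton: tubulins, neurofilament subunits and the large microtubule-associated proteins Map1a and Map1b. They were chosen by symbol from a list of 10, and 9 of these (Tuba1a, Tuba1b, Tubb3, Tubb5, Nefl, Nefm, Nefh, Map1a and Map1b) have a row among the 19962 probe targets analysed. Tubb2a was not analysed here. All 9 passed the filter on low signal, which kept 9981 targets.

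The data come from 24 regions of mouse brain sections profiled on the GeoMx digital spatial profiler, in which barcoded RNA probes are hybridized to a section, released from a chosen region by ultraviolet light and counted by sequencing. The sections carried stains for Iba-1 and Tmem119, which guided the choice of regions, and 4 regions came from each of 6 groups. These groups were wild-type (WT), MG-cKO and BMM-cKO mice of either sex, where cKO is a conditional knockout in the labels' terms. WT mice are named WT-SAH in the design text, and the series title speaks of neuroinflammation after SAH, the usual abbreviation of subarachnoid haemorrhage, and of macrophage Lyn kinase. The labels give no Cre driver, deleted exon, age or interval after SAH for any group, do not spell out MG or BMM, and link regions to no individual mouse. By the wording of the design text, 1 slice may have given all 4 regions of a group. Every p-value below is therefore a p over regions and is too small if regions share an animal. Males were imaged on scan 2 and females on scan 3, and sex and slide cannot be told apart.

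Microtubules are polymers of alpha- and beta-tubulin dimers that carry axonal transport and give neurites their shape. Tuba1a and Tuba1b encode near-identical alpha-tubulins, Tuba1a being the main form of developing neurons (whether their probes bind each other's transcripts was not tested), whereas Tubb3 encodes the beta-tubulin that is largely restricted to neurons and Tubb5 a beta-tubulin expressed in many cell types. Neurofilaments are heteropolymers of the light, medium and heavy chains encoded by Nefl, Nefm and Nefh. They set axon calibre, and their chains are released when axons are damaged. Map1a and Map1b encode large proteins that bind and stabilize microtubules, Map1b being prominent in growing and Map1a in mature neurons. The mRNAs of these genes lie mainly in neurons, although the tubulins other than Tubb3 are also made by glia. In bulk regions, fewer cells of a type and less RNA per cell cannot be told apart.

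The regions yielded 1839154 to 10779960 barcode tags, and the 9 genes had 89 to 1006 tags in a region, a counting error of 3.15% to 10.6%. Signal is given as a multiple of the negative probe of that region, a control designed to match no transcript of the mouse. A value near 1 is background. Probes differ in how well they bind, so levels are compared between regions for a gene and not between genes. Lyn lay between 0.878 and 1.22 times the negative probe in all 24 regions, that is, at background. The labelled cell type is macrophage. The median of 25 microglia and macrophage markers lay at 1.08 times the negative probe. Only Aif1, which encodes Iba-1, lay above 2 times on average. The averages ranged from 0.729 times for Lyz2 to 2.05 times for Aif1, with C1qb at 1.77 and Csf1r at 1.76 times. Tmem119 lay between 0.649 and 0.947 times. The median of 20 neuron markers outside the cytoskeleton lay at 2.36 times. Since probes differ, the medians of the 2 lists do not compare the amounts of these cell types.

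The signal of the 9 genes was highest on average in MG-cKO female regions and lowest in BMM-cKO male regions for each of them. For Tubb5 the lowest mean was nearly level with that of WT males (both 1.74 times the negative probe). On the centred log2 scale Tubb5 was lowest in WT males (0.467, against 0.492 in BMM-cKO males). Nefh was there nearly level between BMM-cKO males (-0.245) and WT females (-0.243). For Nefl, Nefm, Nefh and Map1a every MG-cKO female region lay above every other region of the series. How many of all targets share this, or the order of the means, was not counted, so neither is read as particular to these genes. Against WT female regions alone, 22.5% of all tested targets lay above without overlap in MG-cKO female regions. For Tuba1a, Tuba1b, Tubb3, Tubb5 and Map1b, MG-cKO female regions overlapped those of the next group. Between neighbouring groups further down the order the regions overlapped for all genes, with the exception of Map1a, whose 4 BMM-cKO male regions lay below the lowest region of the next group. On average over the 24 regions Map1a lay at 3.19 times the negative probe and Nefh at 1.25 times. Map1a exceeded 2 times the negative probe in 20 of 24 regions, Nefl in 13 and Nefh in 2. For Nefh most regions are thus close to background, where a fold change understates a change of the transcript.

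**Figure D1:**
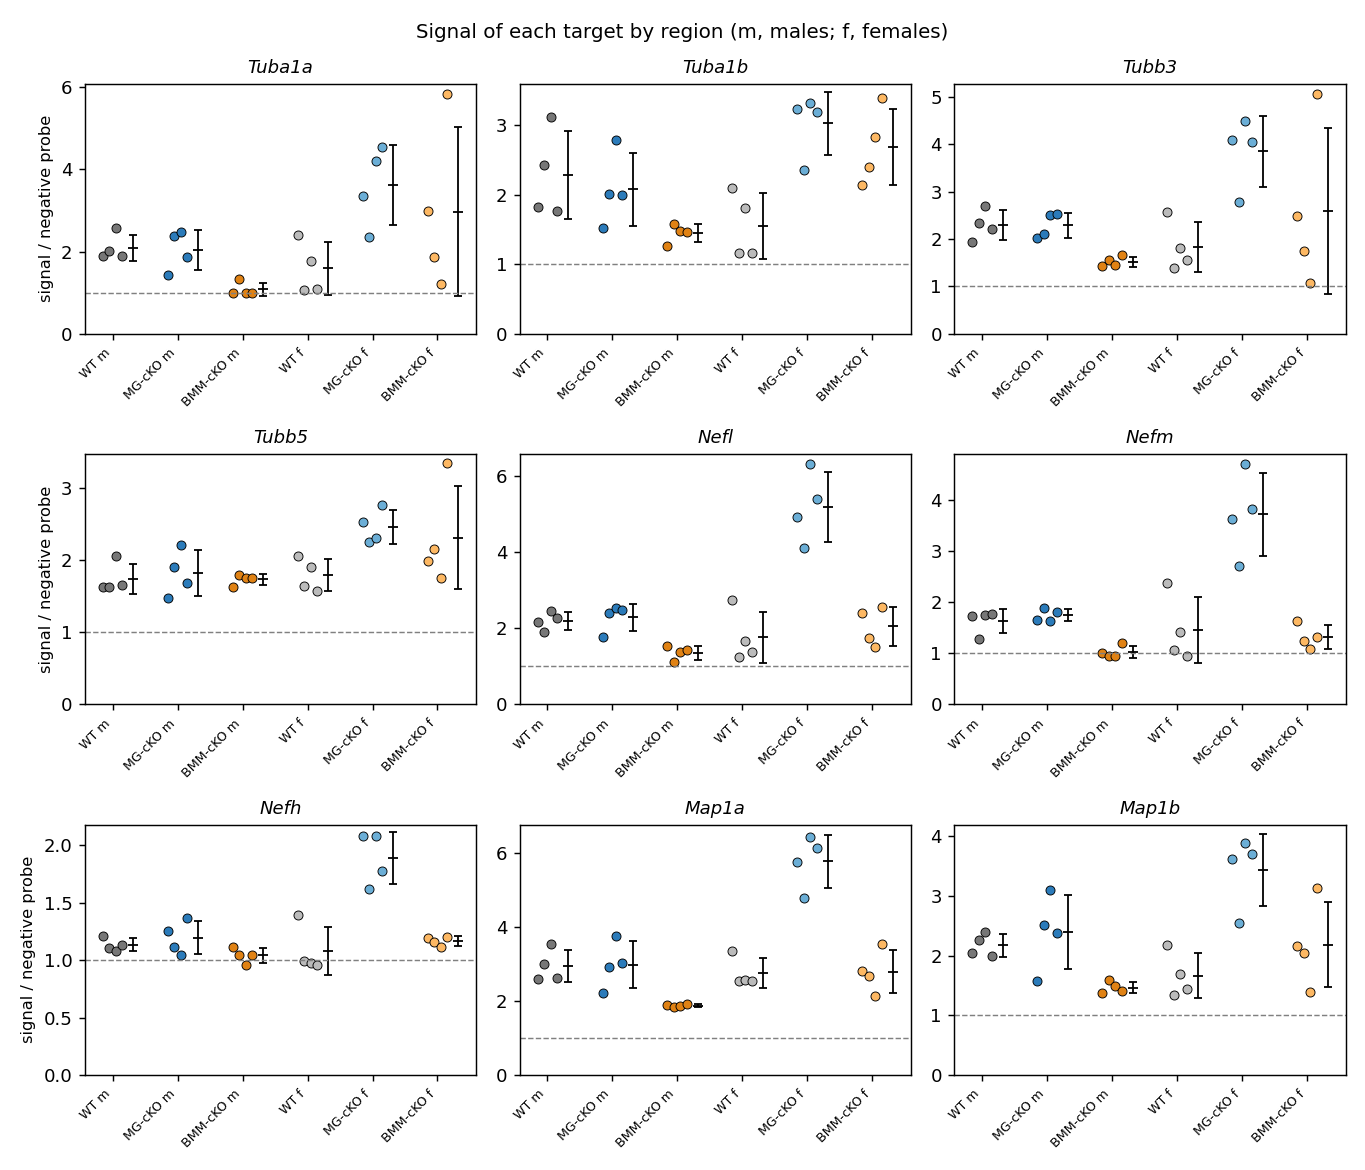
Signal of each of the 9 genes as a multiple of the negative probe (vertical axis) in the 24 regions, by group (m, males; f, females). Points are regions, the bar beside them is the mean with 1 SD over 4 regions, and the dashed line marks the negative probe. MG-cKO females have the highest mean and BMM-cKO males the lowest mean in every panel, for Tubb5 nearly level with WT males (both 1.74 times).

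In females, 8 of the 9 genes rose in MG-cKO against WT regions and none fell, where 17.9% of all 9981 tested targets were higher and 11.9% lower (limma, adjusted p under 0.05). The median log2 change of the 9 genes was 0.94, against -0.02 over all tested targets. The neurofilament chains Nefl and Nefm had the largest changes. The gene that did not pass was Tubb5, the widely expressed beta-tubulin.

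Nefl lay at 4.93, 4.10, 6.30 and 5.38 times the negative probe in the MG-cKO female regions and at 2.73, 1.25, 1.67 and 1.39 times in the WT female regions. Its log2 change was 1.48 (SE 0.18, adjusted p = 3.4e-07), a 2.79-fold rise. The groups did not overlap, and the lowest MG-cKO region stood well above the highest WT region. In this comparison 22.5% of all tested targets lay above WT without overlap and 2.6% below, so a lack of overlap is not particular to these genes. Nefm, the medium chain, lay at 3.63, 2.71, 4.70 and 3.83 times in MG-cKO and at 2.37, 1.07, 1.41 and 0.938 times in WT regions, a log2 change of 1.30 (SE 0.18, adjusted p = 3.7e-06). Nefh, the heavy chain, lay at 2.08, 1.62, 2.08 and 1.78 times in MG-cKO regions, against 1.39, 0.991, 0.978 and 0.961 times in WT regions. It was at background in 3 of 4 WT regions and above it in all MG-cKO regions, with a log2 change of 0.69 (SE 0.10, adjusted p = 8.52e-06).

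Among the tubulins, Tuba1a lay at 3.35, 2.35, 4.19 and 4.55 times the negative probe in MG-cKO female regions and at 2.41, 1.07, 1.78 and 1.10 times in WT female regions. The lowest MG-cKO region fell below the highest WT region, so the groups overlapped, and the log2 change was 1.09 (SE 0.29, adjusted p = 0.00525). Tuba1b rose by 0.87 (SE 0.17, adjusted p = 0.000359) with no overlap, from 1.56 ± 0.474 times in WT to 3.03 ± 0.450 times in MG-cKO regions (SD, n = 4 regions each). Tubb3 lay at 4.08, 2.77, 4.49 and 4.05 times in MG-cKO and at 2.58, 1.39, 1.81 and 1.55 times in WT regions, a log2 change of 0.96 (SE 0.25, adjusted p = 0.00494). Tubb5 lay at 2.53, 2.26, 2.30 and 2.77 times against 2.06, 1.64, 1.90 and 1.58 times. Its regions did not overlap on this scale, yet the log2 change of 0.33 (SE 0.13) missed the threshold (adjusted p = 0.0544).

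Both microtubule-associated proteins rose. Map1a lay at 5.76, 4.79, 6.44 and 6.15 times the negative probe in MG-cKO female regions and at 3.37, 2.55, 2.58 and 2.54 times in WT female regions, a log2 change of 0.94 (SE 0.14, adjusted p = 8.05e-06). Map1b lay at 3.62, 2.54, 3.89 and 3.70 times against 2.18, 1.34, 1.70 and 1.44 times, a log2 change of 0.92 (SE 0.17, adjusted p = 2e-04). For both the groups stood apart.

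In each of the 9 genes the highest WT female region was replicate 1, the only female region whose library name places it on plate B. Without it all 9 genes rose, Tubb5 by 0.40 (adjusted p = 0.0357). Quantile normalization gave smaller changes, among them 0.34 for Map1a (adjusted p = 0.0211), 0.97 for Nefl and 0.56 for Tubb3 (adjusted p = 0.0527). Neuron markers moved with the same regions: 15 of 19 tested markers outside the cytoskeleton rose, with a median log2 change of 1.02. Their summed level lay between 95.6 and 169 times the negative probe in MG-cKO female regions and between 43.2 and 66.0 times in WT female regions. Snap25, which encodes a synaptic fusion protein, rose by 2.37. Astrocyte markers moved too: 5 of 10 rose and none fell, with a median of 0.33, among them the glutamate transporter gene Slc1a2 (1.10). Their summed level lay between 37.3 and 42.1 times in MG-cKO and between 17.6 and 25.7 times in WT female regions. Of 13 tested microglia and macrophage markers 10 fell. The part of the cell content of the regions in the changes of the 9 genes was not tested.

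**Figure D2:**
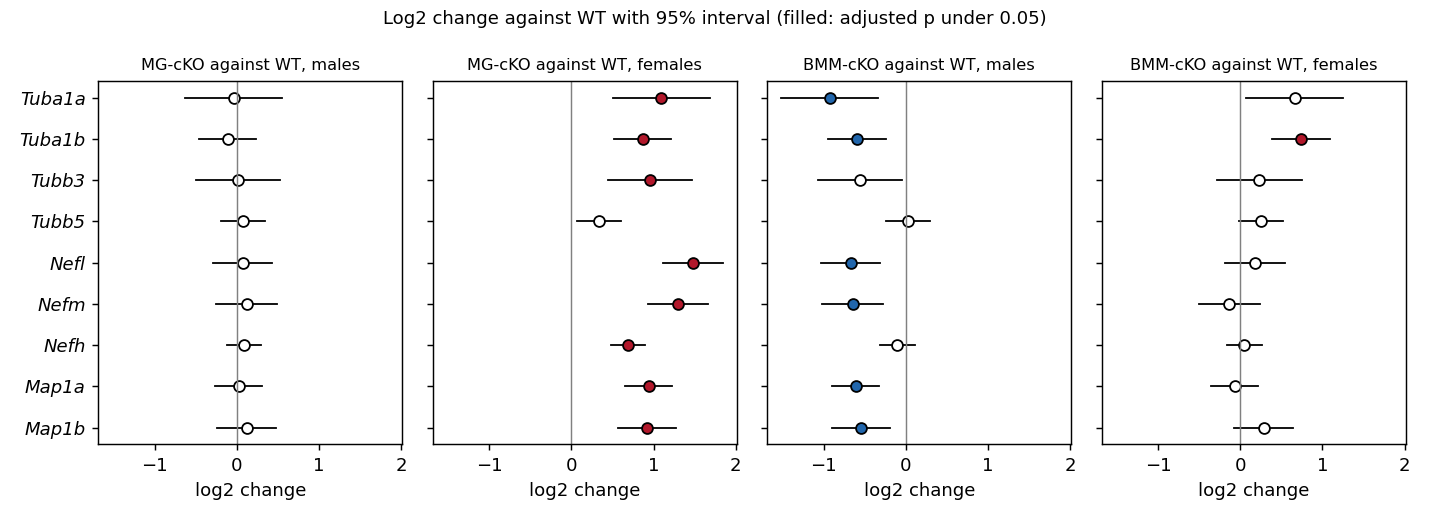
Log2 change of the 9 genes in each knockout group against WT of the same sex (horizontal axis), with the 95% interval of the limma fit. Filled points passed an adjusted p of 0.05 (red higher, blue lower). In females 8 genes rose in MG-cKO regions, and in males 6 fell in BMM-cKO regions.

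In males, none of the 9 genes passed the test in MG-cKO against WT regions, where 0.441% of the tested targets were higher and 0.0401% lower. By limma 48 targets were called, and 1498 had an unadjusted p under 0.05. The log2 changes of the 9 genes lay between -0.11 for Tuba1b and 0.12 for Nefm, with a median of 0.07. Nefl lay at 1.77, 2.39, 2.53 and 2.47 times the negative probe in MG-cKO male regions and at 2.17, 1.89, 2.44 and 2.27 times in WT male regions. The groups overlapped for all 9 genes, where 1.79% of all tested targets lay above WT without overlap and 3.07% below. As deposited, with the median target shifted by 0.32, 5 of them passed as higher. The interval of the difference for Nefl reached from -0.30 to 0.43 and that for Map1a from -0.26 to 0.31. For Tuba1a it reached from -0.63 to 0.55, so that changes within that range in either direction are not excluded.

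The difference between the MG-cKO effect in females and that in males was tested as an interaction over regions. It passed the test as higher in females for 8 genes and not for Tubb5 (0.26, adjusted p = 0.298), where 14.2% of the tested targets passed as higher and 12.8% as lower. Nefl differed by 1.41 (SE 0.25, adjusted p = 0.000207), Nefm by 1.18 (SE 0.26, adjusted p = 0.00149) and Map1a by 0.92 (SE 0.20, adjusted p = 0.00131). For Tuba1a the difference was 1.14 (adjusted p = 0.0389), and the call was lost on leaving out any of 10 of the 16 regions, with adjusted p up to 0.0903. For Tubb3 it was 0.95 (adjusted p = 0.0467), and the call was lost with any of 13 of the 16 regions left out, with adjusted p up to 0.0984. With either gene, no direction turned in these refits. Quantile normalization ended the call for Tuba1a, Tubb3, Map1a and Map1b, with 0.32 for Map1a (adjusted p = 0.132), and left it for Nefl, Nefm, Nefh and Tuba1b. Neuron markers differed in the same direction in 15 of 19 cases. Sex and slide cannot be told apart in this difference.

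In male BMM-cKO regions, 6 of the 9 genes were lower than in WT relative to the median target and none was higher, on the centred scale. On the deposited scale the changes of 8 of the 9 genes turned above 0, and all of these but Tuba1a (0.57, adjusted p = 0.0606) passed as higher. Of all tested targets 25.7% were lower and 27.8% higher, so that a large part of the table moved in either direction. The authors' factor for each group alone shifts the median target by 1.49 log2 units between these groups, which is why values are given against the negative probe or the median target. The median log2 change of the 9 genes was -0.60, against -0.01 over all tested targets, of which 5% lay below -0.53.

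Tuba1a lay at 1.00, 1.33, 1.00 and 0.991 times the negative probe in BMM-cKO male regions and at 1.89, 2.02, 2.56 and 1.89 times in WT male regions. It was thus at background in 3 of 4 BMM-cKO regions, and it fell by 0.93 on the log2 scale (SE 0.29, adjusted p = 0.00821). Tuba1b, at 1.27 to 1.58 times against 1.77 to 3.11 times, fell by 0.60 (adjusted p = 0.00464). Tubb3 lay at 1.44, 1.55, 1.44 and 1.66 times against 1.95, 2.34, 2.70 and 2.21 times. Its regions did not overlap, where 27.5% of all tested targets lay below WT without overlap and 25.2% above. The log2 change of Tubb3, -0.56 (SE 0.25), missed the threshold (adjusted p = 0.0592). Tubb5 lay at 1.63 to 1.80 times in BMM-cKO and at 1.63 to 2.05 times in WT regions, with a log2 change of 0.03 (interval -0.24 to 0.29).

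Nefl lay at 1.54, 1.10, 1.36 and 1.42 times the negative probe in BMM-cKO male regions, against 2.17, 1.89, 2.44 and 2.27 times in WT, and fell by 0.67 (SE 0.18, adjusted p = 0.00227). Nefm lay at 1.01, 0.947, 0.941 and 1.20 times against 1.73, 1.28, 1.75 and 1.77 times, and fell by 0.65 (SE 0.18, adjusted p = 0.00385). It was close to background in the BMM-cKO regions. Nefh was near background in both groups, at 0.956 to 1.12 and 1.08 to 1.21 times, and its log2 change of -0.10 did not pass (adjusted p = 0.407). Map1a lay at 1.90, 1.84, 1.86 and 1.92 times against 2.59, 3.01, 3.54 and 2.63 times, and fell by 0.61 (SE 0.14, adjusted p = 0.00057). Map1b fell by 0.54 (SE 0.17, adjusted p = 0.00997). The 6 genes that fell kept their calls with any 1 of the 8 regions left out.

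Beside these values, 10 of 19 neuron markers fell in the same comparison and none rose, with a median log2 change of -0.41. Their summed level lay between 32.5 and 38.2 times the negative probe in BMM-cKO male regions and between 48.5 and 67.9 times in WT male regions. Of 10 astrocyte markers 4 fell (median -0.30) and of 9 oligodendrocyte markers 3 fell (median -0.48), with none higher. Summed astrocyte markers lay between 18.4 and 20.6 times in BMM-cKO and between 19.8 and 30.0 times in WT male regions, and summed oligodendrocyte markers between 11.5 and 17.7 and between 17.4 and 26.0 times. Of 13 microglia and macrophage markers 7 fell and 2 rose. The part of cell content in the fall of the 6 genes was not tested. BMM-cKO male regions were also the deepest as a group.

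In females, BMM-cKO and WT regions differed in 1 of the 9 genes, Tuba1b, where 1.35% of the tested targets were higher and 0.992% lower. Tuba1b lay at 2.14, 2.40, 2.82 and 3.40 times the negative probe in BMM-cKO female regions and at 2.09, 1.16, 1.81 and 1.16 times in WT female regions. The groups did not overlap, and it rose by 0.74 (SE 0.17, adjusted p = 0.0211). Of all tested targets 8.68% lay above WT without overlap and 1.10% below. The call was lost without WT female replicate 2 (0.63, adjusted p = 0.105), without WT female replicate 4 (0.62, adjusted p = 0.106), without BMM-cKO female replicate 4 (0.63, adjusted p = 0.0577) and in a fit of these groups alone (adjusted p = 0.191). In the deposited values, whose median target is shifted by 0.64, all 9 genes passed as higher.

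The other tubulins varied widely between the BMM-cKO female regions. Tuba1a lay at 2.98, 1.87, 1.20 and 5.83 times the negative probe, from near background in replicate 3 to the highest Tuba1a value of the series in replicate 4. Its log2 change of 0.66 (SE 0.29) did not pass (adjusted p = 0.228). With 1 of the 8 regions left out it ranged from 0.26, without replicate 4, to 1.03, without replicate 3 (adjusted p = 0.0139). The adjusted p reached 0.634 in these refits. Tubb3 followed the same order, at 2.49, 1.75, 1.07 and 5.06 times. Nefl varied less, at 2.39, 1.74, 1.50 and 2.54 times, and Nefm lay at 1.63, 1.24, 1.08 and 1.31 times. The region with the highest Tuba1a and Tubb3 was also the highest of its group in Nefl, but not in Nefm. The summed neuron markers of these 4 regions ranged from 31.3 to 88.5 times the negative probe, and the summed oligodendrocyte markers from 9.88 to 39.2 times. For the neurofilaments and Map1a the log2 changes lay between -0.13 and 0.18.

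**Figure D3:**
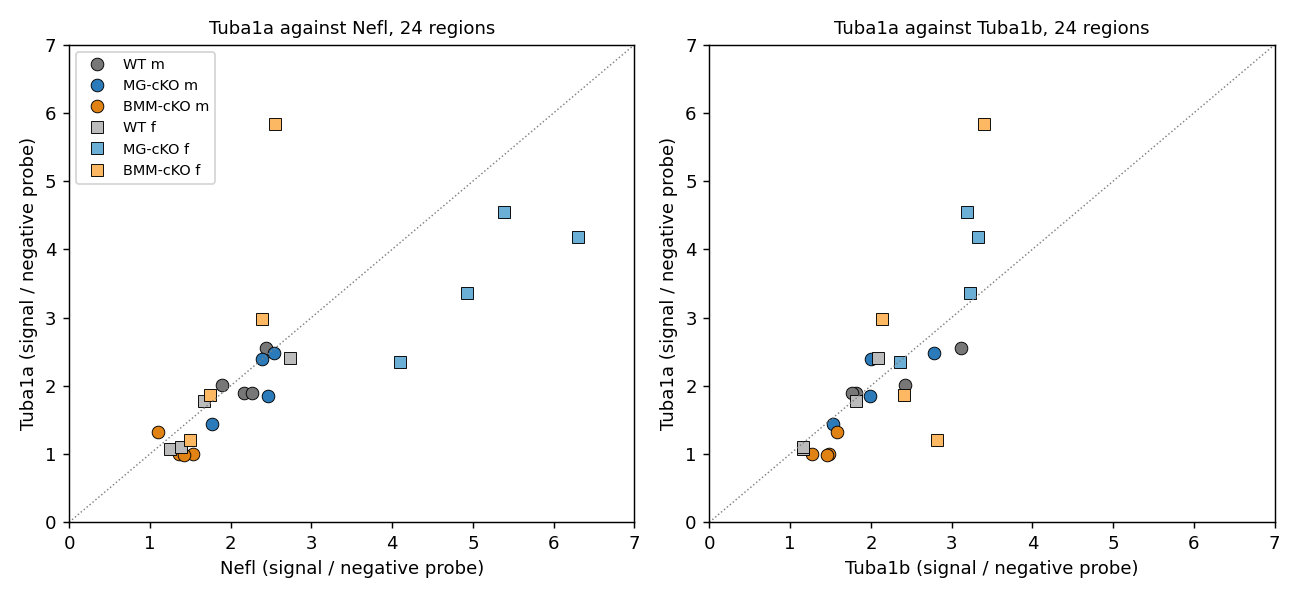
Tuba1a against Nefl (left) and against Tuba1b (right) in the 24 regions, all as multiples of the negative probe, with equality dotted (circles, males; squares, females). BMM-cKO female replicate 4 has 5.83 times for Tuba1a at 2.54 times for Nefl, whereas the 4 MG-cKO female regions have Nefl at 4.10 to 6.30 times.

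The BMM-cKO effect differed between the sexes, as female minus male, for 5 genes, all higher, where 21.5% of the tested targets passed as higher and 24.2% as lower. Tuba1a differed by 1.59 (SE 0.41, adjusted p = 0.0025) and Tuba1b by 1.34 (SE 0.24, adjusted p = 9.52e-05). Nefl differed by 0.85 (adjusted p = 0.00711), Map1b by 0.83 (adjusted p = 0.0076) and Map1a by 0.54 (adjusted p = 0.0258). The call for Map1a was lost without WT male replicate 3 (adjusted p = 0.0605), WT female replicate 4 (0.0526) or BMM-cKO female replicate 4 (0.0716), and with no filter (0.0731). Tubb3 missed the threshold (0.79, adjusted p = 0.067) and passed it without WT female replicate 1 (0.96, adjusted p = 0.0295), without BMM-cKO female replicate 2 (0.90, adjusted p = 0.0469) and without BMM-cKO female replicate 3 (1.15, adjusted p = 0.000838). Nefm (0.51, adjusted p = 0.103) likewise passed without WT female replicate 1 (0.77, adjusted p = 0.00349) and without BMM-cKO female replicate 3 (0.61, adjusted p = 0.0397). With the values as deposited and their median target shifted by -0.86, the difference turned below 0 for all genes but Tuba1a and Tuba1b, and these lost their calls.

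Set against each other, MG-cKO regions were higher than BMM-cKO regions in 6 of the 9 genes in either sex, and lower in none. In males, 18.1% of the tested targets were higher in MG-cKO and 20.4% lower, and the genes that passed were Tuba1a (0.89), Tuba1b (0.48), Nefl (0.74), Nefm (0.76), Map1a (0.63) and Map1b (0.66). In the values as deposited, whose median target shifted by -1.18, all 9 changes turned below 0 and all but Tuba1a (-0.31, adjusted p = 0.305) passed as lower. In females, 11% of the tested targets were higher and 3.54% lower. There Nefm had the largest change (1.43, SE 0.18, adjusted p = 9.99e-07), followed by Nefl (1.30), Map1a (1.01), Tubb3 (0.72), Map1b (0.64) and Nefh (0.64). The alpha-tubulins did not pass in females, with 0.43 for Tuba1a (interval -0.16 to 1.02) and 0.13 for Tuba1b (interval -0.23 to 0.48). These comparisons share their knockout regions with those against WT and are not independent of them.

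Several of these calls rested on single regions or on the setting. In males, Tuba1a was lost without MG-cKO replicate 2 (adjusted p = 0.0508) or 3 (0.0509), and Tuba1b without MG-cKO replicate 3 (0.13) or BMM-cKO replicate 1 (0.0797). Tuba1b was also lost with no filter (0.43, adjusted p = 0.0582) and by voom (0.49, adjusted p = 0.0658). In females, Tubb3 (adjusted p = 0.0496) was lost with any of 5 of the 8 regions left out, and was 0.37 without BMM-cKO replicate 3 and 1.12 without BMM-cKO replicate 4. Map1b was lost without BMM-cKO female replicate 3 (0.43, adjusted p = 0.0574). Quantile normalization ended the calls of Tubb3 (0.39, adjusted p = 0.273) and Map1b (0.33, adjusted p = 0.141) in females, as did a fit of the compared groups alone (adjusted p = 0.252 and 0.0908). A pseudocount of 10 also ended that of Tubb3 (adjusted p = 0.0541). Tuba1a passed in females without BMM-cKO replicate 4 (0.83, adjusted p = 0.0163). Neuron markers were higher in MG-cKO for 15 of 19 in females and 6 of 19 in males.

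Males were compared with females within each genotype, where the slide differs with sex. In WT, Tuba1b alone was higher in males (0.58, SE 0.17, adjusted p = 0.00885), where 16.3% of the tested targets were higher and 23.2% lower. The call was lost without WT male replicate 3 (0.44, adjusted p = 0.0546) or WT female replicate 4 (0.45, adjusted p = 0.053). Without WT female replicate 1, Nefl (0.62, adjusted p = 0.00311), Nefm (0.54, adjusted p = 0.00659) and Map1b (0.55, adjusted p = 0.0169) also passed.

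In MG-cKO, Nefl, Nefm, Nefh and Map1a were lower in males, where 6.06% of the tested targets were higher and 13.7% lower. The log2 changes were -1.02 for Nefl (SE 0.18, adjusted p = 9.66e-05), -0.90 for Nefm, -0.50 for Nefh and -0.81 for Map1a. Quantile normalization ended the call for all but Nefh, with -0.17 for Map1a (adjusted p = 0.323), -0.40 for Nefl (adjusted p = 0.108) and -0.43 for Nefm (adjusted p = 0.109). Scaled to the negative probe, which shifts the median target by -0.17, all 9 were lower in males.

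In BMM-cKO, Tuba1a (-1.11, adjusted p = 0.00954), Tuba1b (-0.76, adjusted p = 0.00311) and Map1a (-0.43, adjusted p = 0.032) were lower in males, where 5.66% of the tested targets were higher and 11.2% lower. On the deposited scale, which shifts the median target by 1.22, all 9 changes turned above 0, and 8 passed as higher, Tuba1a being at 0.096 (adjusted p = 0.746). With the compared groups alone Tuba1a lost its call (adjusted p = 0.069). The value of Tuba1a rested on BMM-cKO female replicate 4, without which it was -0.71 (adjusted p = 0.0505). The call for Map1a was lost with any of 7 of the 8 regions left out, with adjusted p up to 0.131, and with no filter (adjusted p = 0.0522). Without BMM-cKO female replicate 3, 7 of the 9 genes were lower in males.

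Tuba1a and Tuba1b are neighbouring coding genes on mouse chromosome 15, as Nefl and Nefm are on chromosome 14. The proximal promoters of the 4 tubulin genes are printed here as a description. Whether their sequences bear on the values of these genes was not tested. Each is the 150 bases before the annotated start on the gene's strand, from RefSeq on build GRCm38.p6. Capitals mark matches on either strand to the GC box GGGCGG, the CCAAT box CCAAT, the TATA box TATAAA and the cAMP response element TGACGTCA.
Tuba1a, chr15:98953502-98953651, minus strand: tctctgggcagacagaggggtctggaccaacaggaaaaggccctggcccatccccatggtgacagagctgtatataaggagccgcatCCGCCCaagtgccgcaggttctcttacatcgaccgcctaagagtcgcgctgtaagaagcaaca
Tuba1b, chr15:98934391-98934540, minus strand: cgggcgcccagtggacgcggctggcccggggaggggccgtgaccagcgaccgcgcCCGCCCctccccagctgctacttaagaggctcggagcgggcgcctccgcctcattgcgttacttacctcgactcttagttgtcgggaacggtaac
Tubb3, chr8:123411403-123411552, plus strand: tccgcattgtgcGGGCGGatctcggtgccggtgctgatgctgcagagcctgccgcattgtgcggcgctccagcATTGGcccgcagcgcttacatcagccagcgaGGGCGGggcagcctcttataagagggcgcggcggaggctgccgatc
Tubb5, chr17:35838302-35838451, minus strand: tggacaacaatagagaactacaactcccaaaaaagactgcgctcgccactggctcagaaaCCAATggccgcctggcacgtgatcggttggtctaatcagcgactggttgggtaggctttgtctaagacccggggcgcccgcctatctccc
Tuba1a and Tuba1b each held GC box letters and none of the other motifs, Tubb3 held a GC box and a CCAAT box, and Tubb5 a CCAAT box only. Over 32851 promoter windows of the same length, 28.6% held the GC box letters, 24.5% CCAAT, 7.57% TATAAA and 1.36% TGACGTCA. The share of G and C was 57.3% for Tuba1a, 69.3% for Tuba1b, 68.0% for Tubb3 and 56.0% for Tubb5, against a median of 54.0% over all windows. A match is a run of letters and not a shown binding site.

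Ratios between paired genes within a region need no scaling between groups. Of 5 pairs in 4 comparisons of a knockout with WT, 3 of 20 ratios gave an exact two-sided permutation p of 0.0286, the smallest that 4 against 4 regions allow, and none passed after Benjamini-Hochberg adjustment over the 20 (adjusted p = 0.191 for these). The ratio of Nefl to Nefh signal was 2.72 in MG-cKO and 1.57 in WT female regions, and 1.29 in BMM-cKO and 1.93 in WT male regions. Nefh averaged 1.08 times the negative probe in WT females, 1.13 in WT males and 1.04 in BMM-cKO males. With Nefh so near background, these ratios do not give the proportion of the 2 transcripts. The ratio of Tubb3 to Tubb5 was 0.876 in BMM-cKO and 1.32 in WT male regions. In these 3 cases the regions did not overlap between the groups. The ratio of Nefl to Nefm stayed between 1.24 and 1.54 in the group means of all 4 comparisons, and that of Tuba1a to Tuba1b ranged from 0.425 to 1.72 among the BMM-cKO female regions alone.

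Over the 24 regions the centred log2 values of the 9 genes rose and fell together, with Pearson correlations between 0.35 (Tubb5 and Nefh) and 0.95 (Nefl and Nefm). These regions share libraries, slides and tissue content, and the correlations are given as a description. Once the group means were removed, the closest pairs were Map1a with Map1b, Tuba1a with Map1b and Tuba1a with Tubb3, each at 0.92. The neighbouring genes Nefl and Nefm stood at 0.83 and Tuba1a and Tuba1b at 0.60. Within groups Nefh had low correlations outside the neurofilaments, at -0.08 with Tubb5, -0.04 with Tuba1b, 0.11 with Map1a, 0.15 with Map1b, 0.20 with Tuba1a and 0.34 with Tubb3, and it exceeded 2 times the negative probe in only 2 regions. With the mean of the neuron markers the 9 genes correlated at 0.65 (Tuba1b) to 0.95 (Map1a) over the regions, and within groups at 0.17 (Nefh) and 0.42 (Nefm) to 0.88 (Map1b). With the astrocyte markers the correlations over the regions were 0.47 (Tubb5) to 0.82 (Map1b), and for Tuba1b the astrocyte value (0.72) was above the neuron value.

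**Figure D4:**
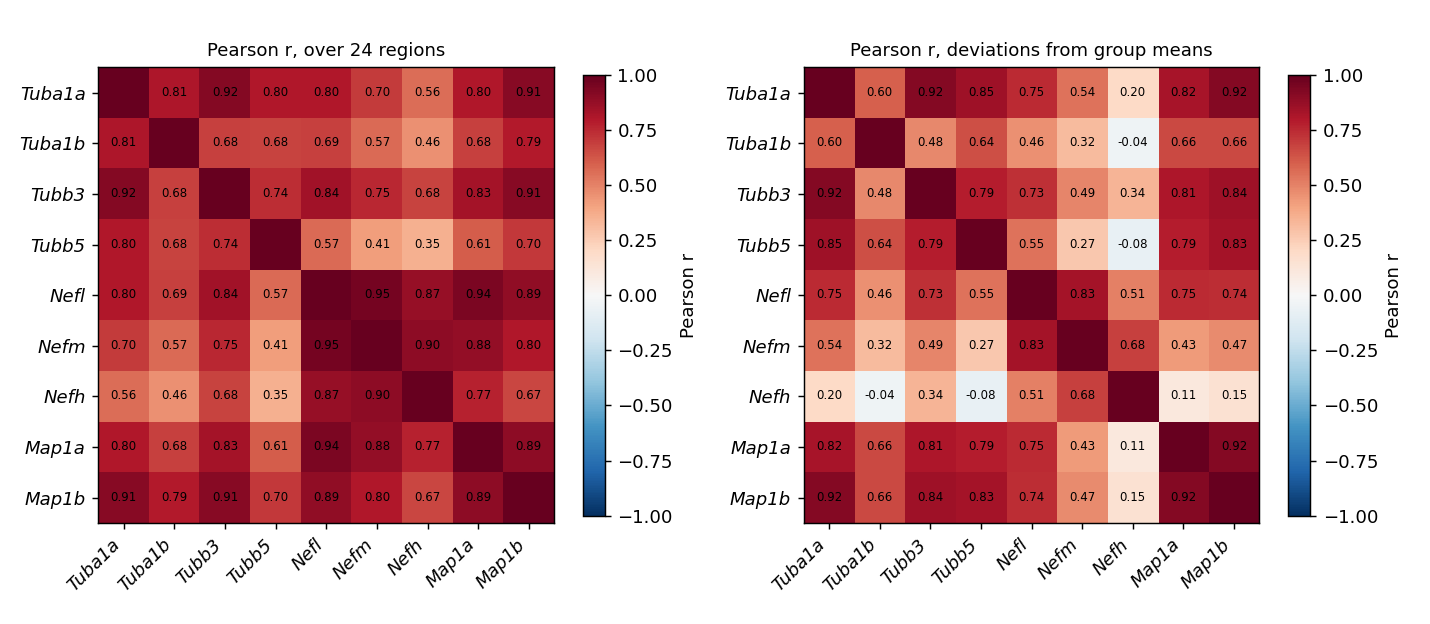
Pearson correlation between the 9 genes over the 24 regions (left) and over deviations from the group means (right), on centred log2 values. Nefl and Nefm are the closest pair over all regions (0.95), and the correlations of Nefh with the tubulins are 0.34 or less once group means are removed.

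The tested target outside the set whose pattern over the 24 regions was most like each gene was Acot7 for Tuba1a (r = 0.94), Tecr for Tuba1b (0.93), Sh3gl2 for Tubb3 (0.93) and Amph for Tubb5 (0.87). Sh3gl2 and Amph encode endophilin and amphiphysin proteins of synaptic vesicle endocytosis. For the neurofilaments these were Cend1 for Nefl (0.96), Septin8 for Nefm (0.94) and Sncb, which encodes beta-synuclein, for Nefh (0.90). Nsf, an ATPase of membrane fusion, was most like Map1a (0.96), and Kif1a, a motor of synaptic vesicle precursors, most like Map1b (0.96). Each is the highest correlation among all other tested targets.

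Other cytoskeletal genes were followed in lists grouped by function. In MG-cKO against WT females, 17.9% of all tested targets were higher and 11.9% lower. There 20 of 26 other microtubule-associated proteins rose and none fell, with a median of 0.52. Among them Stmn1, a protein that destabilizes microtubules, rose by 1.83, and Dclk1, a doublecortin-like kinase, by 1.33. Of 20 microtubule motor subunits 17 rose, with a median of 0.54. Kif5a, the neuronal kinesin heavy chain that carries neurofilaments, lay in females at 7.70 to 8.92 times the negative probe with the MG-cKO and at 1.99 to 3.50 times in WT regions, and rose by 1.59. Of 17 actin and spectrin genes 12 rose, among them Cfl1, the actin-severing cofilin, by 1.12. Only 2 of 6 other tubulins rose, Tuba4a by 0.95 and Tubb4a by 0.89. Of 24 genes of tubulin folding and modification 7 rose and 1 fell, with a median of 0.13. Of 6 other intermediate filaments only Ina, the neuronal internexin, rose (0.44), while its list had a median of -0.06.

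In BMM-cKO against WT males, where 27.8% of all tested targets were higher and 25.7% lower, 14 of 20 motor subunits fell, none rose, and the median was -0.43. Kif5a fell by 0.92 and Kif1a by 0.79. Of 26 other microtubule-associated proteins 16 fell and 1 rose, with the axonal tau gene Mapt at -0.72 and the dendritic Map2 at -0.66. Of 17 actin and spectrin genes 8 fell and 2 rose, among them Actb (-0.70). Of 6 other intermediate filaments 3 were higher and none lower: Lmna, a nuclear lamin (0.45), Vim, the vimentin of glia and mesenchymal cells (0.43), and Ina (0.33). Of the other tubulins Tubb6 rose by 0.69, from 0.983 ± 0.102 times the negative probe in WT, that is background, to 1.56 ± 0.0650 times in BMM-cKO male regions (SD, n = 4 regions each), and Tuba4a fell by 0.45. Of 24 tubulin folding and modification genes 7 were higher and 4 lower.

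In the other comparisons of a knockout with WT few listed genes passed. In MG-cKO against WT males none did in any list, where 0.441% of all tested targets were higher and 0.0401% lower. In BMM-cKO against WT females, 1.35% of all tested targets were higher and 0.992% lower. Tubb4b, a broadly expressed beta-tubulin, rose there by 0.57 (adjusted p = 0.0294). Map1lc3a, an autophagosome protein first found with Map1a and Map1b, rose by 0.43 (adjusted p = 0.0335). None of the motor, actin and spectrin, or folding genes passed.

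**Figure D5:**
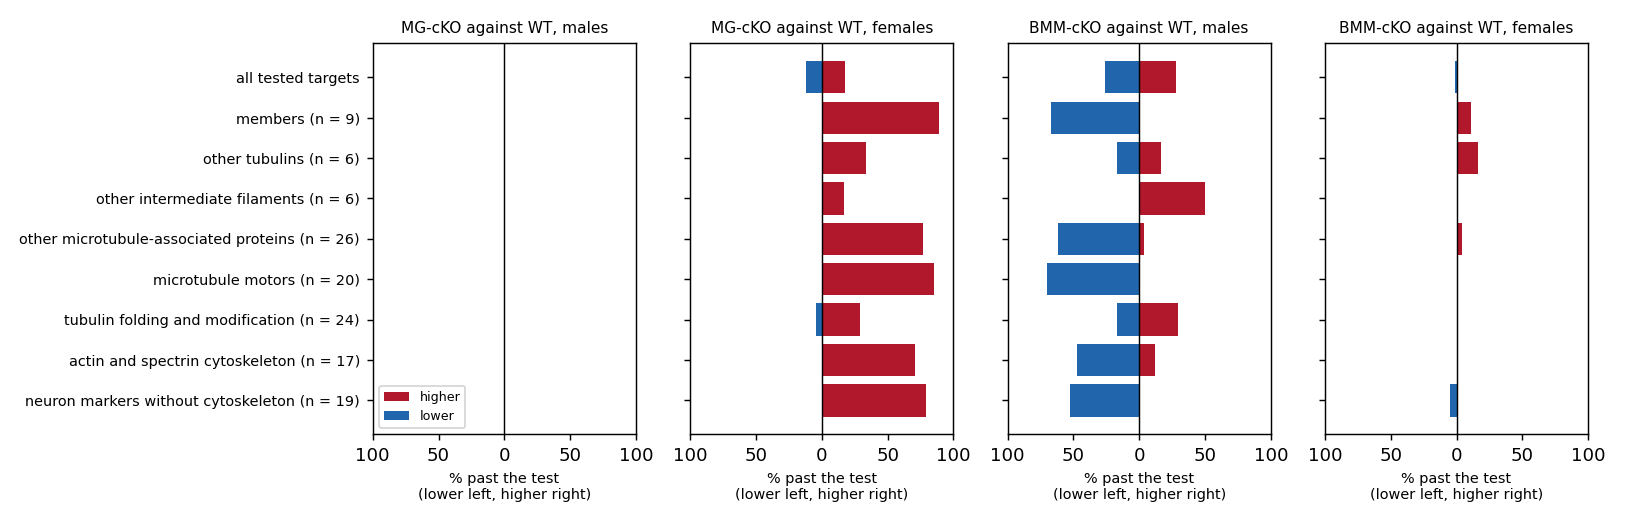
Share of the tested genes of each list that passed the test as higher (right, red) or lower (left, blue), for the 4 comparisons with WT, beside all tested targets and the 9 genes. In MG-cKO females 17 of 20 motor and 20 of 26 microtubule-associated genes passed as higher and none as lower, and in BMM-cKO males most of their called genes lie on the lower side.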

How the data were processed

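Deposited values are a signal per probe target and region, 1 row per target and 1 column per region per the file headers. The software behind them is not given in the sources used here. In each region at least 99.98% of the deposited signal values were whole multiples of 1 step within a tolerance of 0.01, from which tags were recovered. The geometric mean was equal within a group and differed between groups, so the authors' values carry 1 factor per region set within each group and are not comparable between groups. A table of 12 columns that match no single sample was not used.

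The members, gene lists and tests were chosen with earlier results of these data known, and no pattern is independent support for them. Groups came from the animal group label, and replicate numbers follow deposition order. Targets whose mean, after division by each region's geometric mean, exceeded the median target were kept (9981 of 19962). Values were tested as log2(value + 1), centred on each region's median, with R 4.3.3 and limma 3.58.1 (functions lmFit and eBayes, trend on), 1 coefficient per group over 24 regions, and Benjamini-Hochberg adjustment over all tested targets, with a threshold of 0.05. Fold changes are on that scale and relative to the median target. The procedure was tested on simulated, independent normal values. These held no shared animals, slides or tissue content, so that test does not bear on p-values where regions share them. Errors of tags cover counting only, since PCR copies are not independent molecules. The 11 comparisons were 4 of knockout with WT, 2 between knockouts, 3 between sexes and 2 differences of a knockout effect between sexes. Named genes were all members, up to 3 genes per list and comparison with the largest change past the threshold, the target most alike to each member, and Lyn. Aif1, Tmem119 and Snap25 are markers. Ratios were tested by exact permutation with scipy 1.17.1. The alternatives were the deposited scale, scaling to the negative probe, quantile normalization, no filter, a pseudocount of 10, the compared groups alone, leaving out each region, and limma's voom on the recovered tags, chosen after seeing the data in place of a planned count model.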

Additional observations from a re-analysis of the deposited data

Results flagged for a closer look

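In 6 of 54 sets of 4 regions, 1 for each gene and group, a region lay far from the other 3 by Dixon's criterion, which chance alone meets in about 1 in 20 sets. Tuba1a lay at 1.33 times the negative probe in BMM-cKO male replicate 2, against 0.991 to 1 times in the other 3 regions. Tuba1b lay at 2.36 times in MG-cKO female replicate 2, against 3.19 to 3.32 times. In WT males, Tubb5 lay at 2.05 times in replicate 3, against 1.63 to 1.65 times, and Nefm at 1.28 times in replicate 2, against 1.73 to 1.77 times. In WT females, replicate 1 stood out in both Nefh, at 1.39 against 0.961 to 0.991 times, and Map1a, at 3.37 against 2.54 to 2.58 times. That region is the only female region on plate B by its library name, and the part of the plate in these values was not tested.

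The effect of a knockout differed between the sexes, as female minus male on the log2 scale, in a test of the difference itself. For MG-cKO the differences were 1.14 for Tuba1a, 0.98 for Tuba1b, 0.95 for Tubb3, 1.41 for Nefl, 1.18 for Nefm, 0.60 for Nefh, 0.92 for Map1a and 0.81 for Map1b. For BMM-cKO they were 1.59 for Tuba1a, 1.34 for Tuba1b, 0.85 for Nefl, 0.54 for Map1a and 0.83 for Map1b. Males and females lay on different slides, so that sex and slide cannot be told apart in these differences.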

How the results depend on the processing

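Calls that held under all alternatives other than the deposited scale were those of 7 genes in MG-cKO against WT females (not Tubb3) and all 6 in BMM-cKO against WT males. In MG-cKO against BMM-cKO they were Nefl, Nefm and Map1a in either sex, Map1b in males and Nefh in females. Between males and females they were Nefh in MG-cKO and Tuba1b in BMM-cKO. In the differences between sexes they were Nefl, Nefm, Nefh and Tuba1b for MG-cKO, and Tuba1a, Tuba1b, Nefl and Map1b for BMM-cKO. On the deposited scale, whose construction adds the authors' group factors, 34 of 99 member changes turned sign with a call on either side. In BMM-cKO against WT males these were Tuba1a (0.57), Tuba1b (0.90), Tubb3 (0.94), Nefl (0.82), Nefm (0.85), Nefh (1.40), Map1a (0.89) and Map1b (0.96), and in females Nefm (0.51) and Map1a (0.57). In MG-cKO against BMM-cKO males they were Tuba1a (-0.31), Tuba1b (-0.71), Tubb3 (-0.62), Tubb5 (-1.15), Nefl (-0.45), Nefm (-0.43), Nefh (-1.01), Map1a (-0.56) and Map1b (-0.53). Between males and females, they were Tubb5 (0.32) in WT and, in BMM-cKO, Tuba1a (0.10), Tuba1b (0.44), Tubb3 (0.78), Tubb5 (0.95), Nefl (0.75), Nefm (0.97), Nefh (1.15), Map1a (0.77) and Map1b (0.80). In the BMM-cKO difference between sexes they were Tubb5 (-0.63), Nefl (-0.0068), Nefh (-0.71), Map1a (-0.32) and Map1b (-0.032). A further 41 refits over all alternatives turned a sign with no call on either side.

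The number of members called also depended on the setting. In MG-cKO against WT males it was 5 as deposited. In BMM-cKO against WT females it was 9 as deposited, 0 with the compared groups alone, and 0 to 2 with a region left out. For males against females in WT it was 9 as deposited, 4 by quantile normalization, 2 by voom, 5 with the groups alone and 0 to 4 with a region left out. In MG-cKO it was 9 against the negative probe, 1 by quantile normalization, 8 with no filter, 8 by voom, 7 with the groups alone and 4 to 6 with a region left out. In BMM-cKO it was 8 as deposited, 5 against the negative probe and 1 to 7 with a region left out. The MG-cKO difference between sexes kept 4 calls by quantile normalization, and the BMM-cKO difference had 2 as deposited. With a region left out, the other counts ranged from 8 to 9 in MG-cKO against WT females, 6 to 6 in BMM-cKO against WT males, 4 to 6 and 4 to 7 in MG-cKO against BMM-cKO males and females, 6 to 8 in the MG-cKO difference between sexes and 4 to 7 in the BMM-cKO one. The cause of these changes was not tested.

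Over all targets, called counts moved from 48 to 8039 as deposited, 2 against the negative probe, 133 by quantile normalization, 93 by voom, 8 with the groups alone and 1 to 319 with a region left out in MG-cKO against WT males, and from 2977 to 7084 as deposited in females. In BMM-cKO against WT they moved from 5347 to 9966 as deposited and 8871 with no filter in males, and from 234 to 9917 as deposited, 150 with no filter, 11 with the groups alone and 60 to 362 with a region left out in females. In MG-cKO against BMM-cKO they moved from 3844 to 9924 as deposited in males, and from 1453 to 7829 as deposited, 911 by quantile normalization and 611 with the groups alone in females. Between males and females they moved from 3943 to 7035 as deposited and 6975 with no filter in WT, from 1968 to 7538 as deposited, 3519 against the negative probe and 3596 with no filter in MG-cKO, and from 1682 to 9894 as deposited, 789 by voom and 997 at the lowest with a region left out in BMM-cKO. The BMM-cKO difference between sexes moved from 4561 to 8970 as deposited.

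The planned count model on recovered tags was not run, and voom took its place. No paired analysis was possible because replicate numbers follow deposition order and pair no regions. Precision is limited by 4 regions a group, by the unknown number of animals and, for Nefh, by signal near the negative probe.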
